A study of Mus musculus with 28 samples.

Results

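The active promoters of autosomal protein-coding genes in wild-type (WT) mouse embryonic stem cells (mESCs) were followed into mESCs that lack Spen. They were taken as the WT H3K27Ac peaks on autosomes within 1000 bp of a transcription start site (TSS) of a protein-coding transcript (GENCODE vM1, mm9 build) that shared no base with a WT H3K9me3 domain. Of the 13922 peaks in the WT H3K27Ac list, 4605 (33.1%) met this rule. They lay at 4212 genes, which is 19.8% of the 21281 autosomal protein-coding genes of the annotation. Another 8043 autosomal WT peaks lay farther than 1000 bp from such a TSS and off H3K9me3 domains, and are called distal peaks below. All cells were HATX mESCs, a haploid line of mixed genomic background with a doxycycline-inducible Xist transgene, grown in serum and LIF. The Spen KO cells (clone 2) carry a deletion of most of the Spen gene as well, and stand for 1 clone. The labels gave 2 ChIP libraries per genotype for each antibody among 28 samples. For H3K27Ac and H3K4me3 both libraries were combined in 1 peak list per genotype, with a score from each library, while Oct4 had 1 list per library. The libraries were described as technical replicates, so the spread between them is not a biological spread.

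H3K27Ac is acetylation of lysine 27 of histone H3, which marks active promoters and enhancers, and H3K4me3 is trimethylation of lysine 4, which marks promoters. Spen is a large RNA-binding corepressor that works with Xist RNA in X chromosome silencing and recruits histone deacetylase activity through its partner proteins. Oct4, the product of Pou5f1, is a transcription factor of pluripotent cells that often binds enhancers. Promoters of housekeeping genes, such as those of ribosomal proteins, are commonly CpG islands and carry both histone marks in most cell types.

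The promoter windows of Mllt6, Rpl13a and Tet1, picked from the 5 members with the highest WT score, are printed as examples. They differed in sequence from each other and do not stand for strongly acetylated promoters in general. Each runs 5′ to 3′ on the strand of the gene in mm9, from 250 bases before the TSS nearest to the centre of the peak through the first 25 transcribed bases. Capitals mark matches, on either strand, to the motifs searched. These were the GC box (GGGCGG), the CCAAT box (CCAAT), the ETS motif (CCGGAAG), the NRF1 motif (GCGCATGC), the TATA box (TATAAA), the YY1 motif (AAGATGGC), the motif TCTCGCGA, the E-box (CACGTG) and the octamer (ATGCAAAT). Each was searched on its own, so that matches of different motifs may overlap.
Mllt6: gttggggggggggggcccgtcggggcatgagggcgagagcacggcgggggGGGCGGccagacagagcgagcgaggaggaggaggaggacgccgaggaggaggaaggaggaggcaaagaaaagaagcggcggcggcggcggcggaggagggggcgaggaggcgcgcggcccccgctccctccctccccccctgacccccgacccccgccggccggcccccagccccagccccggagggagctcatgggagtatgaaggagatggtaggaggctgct
Rpl13a: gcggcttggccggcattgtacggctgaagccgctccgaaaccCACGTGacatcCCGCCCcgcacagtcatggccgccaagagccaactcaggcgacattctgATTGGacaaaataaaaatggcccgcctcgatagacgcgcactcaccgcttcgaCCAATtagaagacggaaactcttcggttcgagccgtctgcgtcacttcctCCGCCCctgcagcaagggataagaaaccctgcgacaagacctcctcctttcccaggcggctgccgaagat
Tet1: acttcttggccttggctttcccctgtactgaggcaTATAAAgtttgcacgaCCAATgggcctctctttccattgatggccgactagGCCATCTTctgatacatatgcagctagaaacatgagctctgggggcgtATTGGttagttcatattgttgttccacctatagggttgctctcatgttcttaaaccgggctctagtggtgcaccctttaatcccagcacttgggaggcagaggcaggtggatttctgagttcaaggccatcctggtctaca
The Mllt6 window (chr11:97524636-97524910, plus strand) matched the GC box alone. The Rpl13a window (chr7:52384083-52384357, minus strand) matched the GC box, the CCAAT box and the E-box. The Tet1 window (chr10:62361842-62362116, minus strand) had only 4 CpG dinucleotides and matched the CCAAT box, the TATA box and the YY1 motif. The GC share ran from 49.1% at Tet1 to 75.6% at Mllt6, and the ratio of observed to expected CpG from 0.24 at Tet1 to 1.08 at Rpl13a.

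Across genes, promoters with a WT H3K27Ac peak were richer in CpG than those without. Here genes were counted by identifier and a gene had a member only if its annotated 5′ end lay within 1000 bp of one, so that genes reached through another TSS alone stand among those without. In windows from 250 bases before to 50 bases after the 5′ end of each gene, the median CpG ratio was 0.82 (quartiles 0.65 to 0.95) for 3986 genes with a member and 0.43 (0.18 to 0.75) for 17427 genes without. The median GC share was 61.0% against 53.7%. For 717 genes with a member in the top 10% of the WT list by score, the median CpG ratio was 0.83 (0.65 to 0.98), near that of all genes with a member. The GC box was in 65.4% of windows with a member, beside 43.7% of all 21413 windows. The ETS motif was in 21.5%, beside 10.9% of all windows, the YY1 motif in 7.18% beside 3.32%, the TCTCGCGA motif in 4.06% beside 1.32%, and the NRF1 motif in 6.95% beside 3.34%. The TATA box went the other way, in 6.92% beside 13.5% of all windows. The CCAAT box (38.7% beside 37.6%) and the octamer (1.63% beside 1.73%) were near the share of all promoters, and the E-box was in 11.0% beside 7.78%. These matches describe the annotated windows and are no measure of factor binding.

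The members held promoters of stem cell markers. Of 12 embryonic stem cell markers, 11 had a member, and Tfcp2l1, whose symbol was not found in the annotation, did not. None of 12 markers of early lineages and none of 8 fibroblast markers had one, although Sox1 was not found in the annotation either. In the Spen KO list 10 of the 12 stem cell markers, 0 of the lineage markers and 0 of the fibroblast markers had a promoter peak. The Spen gene itself had no H3K27Ac promoter peak in the WT list and had one in the Spen KO list, which is no check of the deletion, since a peak at a start site does not show the state of the gene body. Most members (3919) had 1 gene within reach, 666 had 2, 18 had 3 and 2 had 4. TSSs on both strands lay within reach of 639 members. The TSS was inside the peak for 2801 members, and 66.3% of the members were centred downstream of it. A gene could have several peaks, and 731 genes were the nearest gene of at least 2 members, up to 6 at Lasp1. Median width was 1147 bp (quartiles 758 to 1847 bp), beside 1166 bp for distal peaks.

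The 10 strongest members included promoters of chromatin regulators and of genes of protein synthesis. Strength is given as the percentile of the score within its list, averaged over both libraries, since the scores of separate lists cannot be set on 1 scale without depth. The library scores are written as a and b, in the order of the list. Where raw scores of both genotypes are printed below, their difference is no measure of change. Ctbp2, a transcriptional corepressor whose peak was also within reach of a Fgfr2 TSS, scored 81.5 and 79.2 in WT. Mllt6, a partner in MLL fusions, scored 75.3 and 65.5. Both libraries of WT placed these peaks above the 99.9th percentile of the list. Nsd1, a histone H3 lysine 36 methyltransferase, scored 72.2 and 70.0. Rpl13a, a protein of the large ribosomal subunit, scored 79.9 and 59.6. Tet1, a dioxygenase of 5-methylcytosine, scored 70.7 and 58.1. The next were Dido1 (72.2 and 54.7), Eef1a1, the elongation factor that brings aminoacyl-tRNA to the ribosome (72.2 and 53.7), Ahdc1 (65.4 and 59.6), and Cox7c, a subunit of cytochrome c oxidase (63.1 and 54.4). All of these were kept in the Spen KO list. Each also had an H3K4me3 peak in both genotypes, with the Tet1 one low in its list at the 17.9th percentile in WT and the 10.8th in Spen KO.

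Among families, cytosolic ribosomal proteins held the largest number of strong promoters. The top 10% of the WT list by score held 10% of its peaks by construction, and 710 of the 4605 members (15.4%). Of the 79 ribosomal protein genes of the annotation, 75 had a member. Their 91 members had a median percentile of 89.7, beside 58.3 for all members, and 52 (57.1%) were in the top 10%. Their median width was 2443 bp, and 89 of 91 (97.8%) were kept in Spen KO. Rpl3, of the large subunit, had a peak at the 98.8th and 99.4th percentiles in the WT libraries and at the 98.5th and 93.8th in the Spen KO libraries. Mitochondrial ribosomal proteins did not share this level, with a median percentile of 47.7 over 41 members and 2 in the top 10%. Translation factors stood between, with 15 of 52 members in the top 10% and a median percentile of 68.9, led by Eef1a1 and Eif4a2, an RNA helicase of translation initiation.

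**Figure D1:**
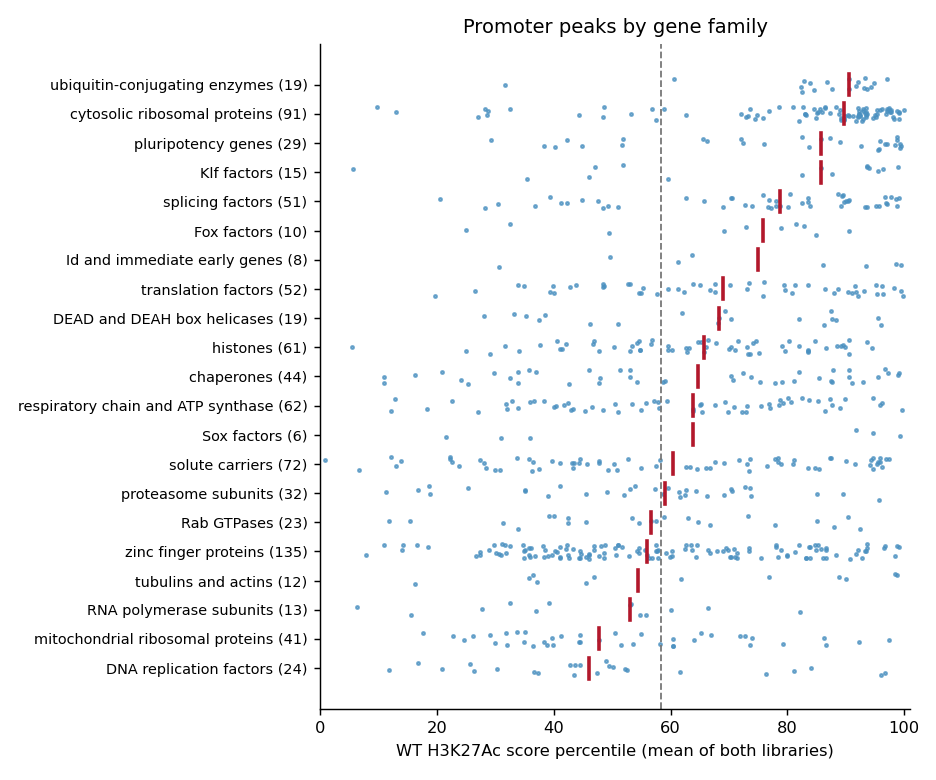
WT H3K27Ac score percentile (mean of both libraries, x axis) of promoter peaks in gene families with at least 5 peaks (y axis, number of peaks in brackets). Each dot is a peak, red bars are family medians and the dashed line is the median of all promoter peaks, 58.3, so that ubiquitin-conjugating enzymes (90.5) and cytosolic ribosomal proteins (89.7) stand at the top.

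Pluripotency genes also had a high median. Of 25 annotated genes on the list, 23 had a member, with a median percentile of 85.8 over 29 members, of which 13 were in the top 10% and 27 were kept. Sox2, an HMG-box factor of the pluripotency network, scored 94.3 and 40.6 in WT against 68.5 and 111 in Spen KO. Pou5f1, which encodes Oct4, scored 87.3 and 37.0 in WT against 112 and 40.7 in Spen KO. Both WT libraries placed these peaks above the 97th percentile of the list. Sall4, a zinc finger factor, scored 60.2 and 53.8 in WT against 88.2 and 74.8 in Spen KO, and Nanog, a homeobox factor, 35.9 and 53.8 in WT against 67.5 and 40.7 in Spen KO. These raw scores come from separate lists without a common scale, and show no rise or fall by themselves. The peaks of Tdgf1, Gdf3, Dppa5a, Utf1 and Fgf4 were all above the 94th percentile in both WT libraries. The Dppa3 peak (11.6 and 17.7) and one of the Stat3 peaks (21.4 and 11.4) were not kept. Klf4 (21.4 and 13.3 in WT) and Zfp42 (22.5 and 12.4) were near the middle of the list.

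Other families were counted in the same way. Ubiquitin-conjugating enzymes had 10 of 19 members in the top 10%, with Ube2d3 the strongest. Splicing factors had 19 of 51, led by Hnrnpf and Hnrnpa2b1, and kept 50 of 51. Klf factors had 6 of 15, led by Klf9 and Klf3. Histones of the replication-dependent clusters had a member at 59 of 67 genes, with 8 of 61 members in the top 10% and 56 kept. These genes are short, clustered and similar in sequence, and only uniquely placed reads were kept upstream. Histone promoters also differed in motifs, with the CCAAT box in 83.1%, the TATA box in 57.6% and the octamer in 22.0% of 59 windows. Windows of 73 ribosomal protein genes held the TCTCGCGA motif in 16.4% and the ETS motif in 31.5%. Zinc finger proteins (14 of 135 in the top 10%), DNA replication factors (2 of 24), RNA polymerase subunits (0 of 13) and respiratory chain subunits (6 of 62) were below the 15.4% of all members. Hox genes, protocadherins and early lineage genes had 0 members among 39, 34 and 15 genes, and olfactory receptors had 1 among 1081, Olfr94.

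Promoter peaks were kept in Spen KO more often than distal ones. A peak was counted as kept when it shared at least 1 bp with the Spen KO H3K27Ac list, which held 11932 peaks. Of the members, 3674 (79.8%, Wilson 95% interval 78.6 to 80.9%) were kept, beside 60.2% of the whole WT list and 47.6% of distal peaks. The difference between members and distal peaks was 32.2 percentage points (Newcombe 95% interval 30.6 to 33.8). There was 1 combined list per genotype, so no test over libraries was possible. The intervals cover counting error only, since peaks share libraries and neighbours.

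The difference was present at each level of strength. The WT list was divided by score into 5 bins of equal size. In the weakest bin 37.8% of members and 17.5% of distal peaks were kept. The shares were 63.1% and 37.8% in the next bin, 76.5% and 48.8% in the middle bin, and 89.2% and 68.5% in the one above it. In the strongest bin 98.1% of members (1298 of 1323) and 89.8% of distal peaks were kept. The difference was therefore between 8.33 and 27.7 percentage points in every bin, and was smallest among the strongest peaks. Members were also stronger as a group, with 28.7% of them in the strongest bin and 9.71% in the weakest.

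**Figure D2:**
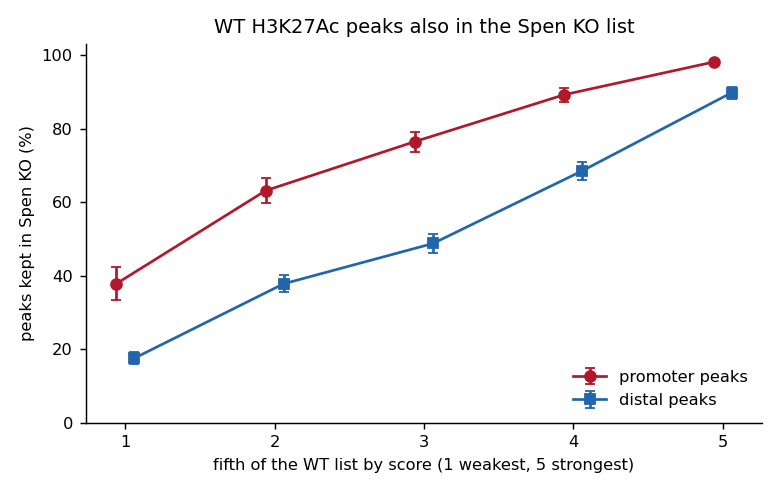
Share of WT H3K27Ac peaks also in the Spen KO list (y axis, percent) by bin of the WT list by score (x axis, 5 bins of equal size), for promoter peaks (red circles) and distal peaks (blue squares), with Wilson 95% intervals. Promoter peaks lie above distal peaks in each bin, from 37.8% against 17.5% to 98.1% against 89.8%.

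The kept share also differed by position at the promoter. Members with the TSS inside the peak were kept in 86.7% of cases and members with the TSS outside it in 69.0%. The former were also stronger, with 20.3% of them in the top 10% of the list against 7.82%, and the part of strength in this difference was not tested. Members with TSSs on both strands within reach were kept in 87.5% and those with TSSs on 1 strand in 78.5%. Near the limit of the rule, 24 of 56 members more than 900 bp from a TSS were kept, and 20 of 60 distal peaks up to 1100 bp from one. The 64 autosomal promoter peaks left out because they lay over WT H3K9me3 were kept in 48 cases.

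The WT-only members were weak and narrow as a group. The 931 members with no Spen KO peak had a median percentile of 36.3 and a median width of 896 bp, against 65.6 and 1232 bp for kept members, and only 7 were in the top 10%. Epcam, a cell adhesion molecule of epithelia and stem cells, had the strongest one (chr17:88035272-88035920), at 36.3 and 28.3, with the nearest Spen KO peak 32046 bp away. Next were Prss36, a serine protease (35.3 and 26.0), and Olig1, a bHLH factor of oligodendrocytes (41.7 and 23.4). Olig2, its neighbour on chromosome 16, was also WT-only (31.1 and 25.8). Ube2s, the enzyme that extends ubiquitin chains with the anaphase-promoting complex, scored 31.1 and 29.5, but a Spen KO peak lay 125 bp away, so its absence depends on the rule for overlap. Fbxl17, Tbcel and Elmo1 completed the 8 strongest, with the nearest Spen KO peaks 2112040, 393255 and 199484 bp away. All of these but Elmo1 had an H3K4me3 peak in both genotypes.

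The kept share differed between chromosomes. It ran from 65.8% on chromosome 17 to 88.7% on chromosome 9. Chromosomes 17, 10, 4, 16 and 12 were the lowest, at 65.8%, 67.5%, 72.3%, 72.8% and 73.2%, while the other 14 lay between 77.1% and 88.7%. The same 5 chromosomes had the lowest kept share of all H3K4me3 peaks, at 65.6 to 70.9% beside 73.1 to 81.8% elsewhere, and the lowest of distal H3K27Ac peaks, at 37.5 to 41.3% beside 42.6 to 63.5%. The median WT percentile of members on them was 55.5 to 61.2, within the range of the other chromosomes. Kept members on these 5 chromosomes also lost rank, with median changes of -4.04 to -9.30 percentile points, beside -2.84 to 5.74 elsewhere. Without them, 83.0% of members were kept and the difference from distal peaks was 32.6 points, and on them alone 69.7% were kept. These chromosomes were picked after their values were seen. The cause was not tested. Coverage of the input libraries was not analysed here, so whether the lines differ in chromosome content was not tested. The shares, ranks and score calls on these chromosomes are given with that limit.

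**Figure D3:**
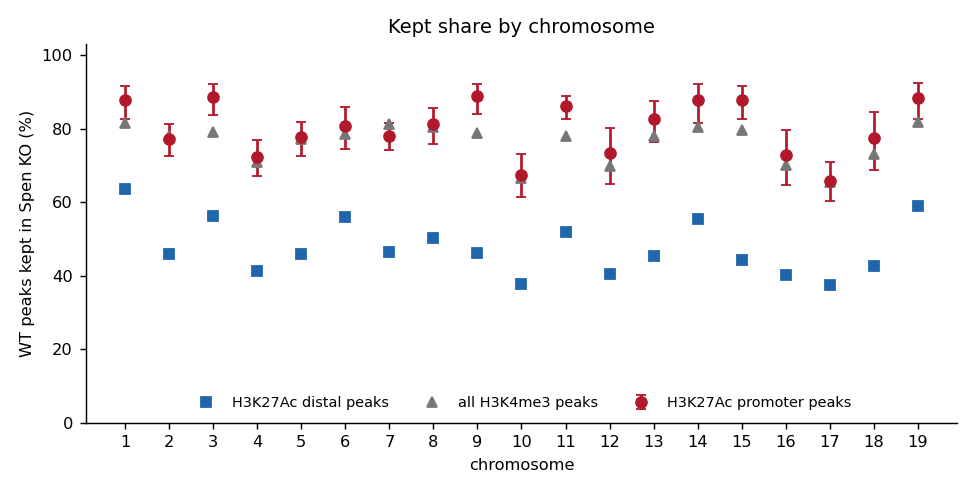
Share of WT peaks also in the Spen KO list (y axis, percent) on each autosome (x axis), for H3K27Ac promoter peaks (red circles, Wilson 95% intervals), H3K27Ac distal peaks (blue squares) and all H3K4me3 peaks (grey triangles). Chromosomes 4, 10, 12, 16 and 17 are lowest for all 3 kinds of peak, with 65.8 to 73.2% of promoter peaks kept.

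The width of kept promoters changed little in the middle of the distribution. The summed width of the overlapping Spen KO peaks over the WT width had a median of -0.02 on the log2 scale (quartiles -0.30 to 0.27) over 3674 kept members, beside 0.00 for all kept WT peaks. Matching was not always 1 to 1. There were 2972 members matched to a single Spen KO peak that overlapped no other WT peak, 257 that overlapped at least 2 Spen KO peaks, and 497 in a Spen KO peak that spanned other WT peaks too. Among the 1 to 1 matches the median was -0.06.

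The widest gains were all at members inside Spen KO peaks that joined several WT peaks. Atf4, a transcription factor of the amino acid response, went from 484 to 6659 bp, and Tmem220 from 1285 to 16993 bp in a Spen KO peak that spanned 5 WT peaks. Rarg, a retinoic acid receptor, went from 942 to 12424 bp, and Notum, a Wnt deacylase, from 909 to 11246 bp. The largest losses were at Rcc2, a chromosome condensation protein of mitosis (3063 to 249 bp), Mvp, the major vault protein (4197 to 583 bp), Trib3 (1760 to 258 bp) and Lasp1 (2707 to 408 bp). Each of these 4 lay in a Spen KO peak that spanned no other WT peak. Widths had 1 value per combined list, so no spread between libraries can be given for them.

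Ranks moved in both directions. The median change in percentile, Spen KO minus WT, was -0.64 points for kept members (quartiles -12.7 to 11.3) and -1.07 for all kept WT peaks. The sign of the members' median depended on the setting, as it was 2.82 with both lists cut to the same length, 1.11 without Spen KO library a and 0.80 without chromosomes 4, 10, 12, 16 and 17. By bin of the WT score, the median change of members went from 17.7 points in the weakest through 9.27, 4.55 and -1.20 to -4.08 in the strongest, while all kept peaks went from 19.2 to -5.13. The bins and the change share the WT percentile, so a trend in this direction arises without any effect of genotype. Both Spen KO libraries ranked 753 kept members (20.5%) above both WT libraries, beside 21.8% of all kept WT peaks, and 841 (22.9%) below both, beside 24.8%. The members' shares were thus near the background. The members' scores correlated better within a genotype (Spearman rho 0.63 in WT and 0.71 in Spen KO over 3674 kept members) than between genotypes (0.53 to 0.57). All kept WT peaks gave 0.61 and 0.72 within and 0.45 to 0.48 between. Each list was filtered for agreement between its own libraries, and scores within a genotype come from the same interval. Closer agreement within a genotype was thus favoured by design and is no measure of a genotype difference. These points share libraries and neighbouring peaks.

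Named members with the largest moves had all Spen KO percentiles on 1 side of the WT ones by rule. Rplp1, an acidic stalk protein of the ribosome, had a weak peak at the 6.52nd and 13.0th percentiles in WT. In Spen KO its match was at the 96.5th and 83.4th. Another Rplp1 peak had a mean WT percentile of 95.2, so the rise is that of 1 peak and not of the whole promoter. Npm1, nucleophosmin, was at the 33.8th and 34.2nd in WT and the 98.1st and 98.9th in Spen KO. Gabarapl2, an autophagy protein, was at the 24.6th and 39.9th in WT and the 98.4th in both Spen KO libraries. Slc35e2, Aspscr1 and BC021614 made up the 6. Of these, 5 lay in Spen KO peaks that spanned at least 2 WT peaks, and the Slc35e2 peak shared a single base with its Spen KO peak. BC021614 was the exception, at the 1.98th and 8.38th percentiles in WT and the 81.9th and 76.9th in Spen KO. The falls were led by Tspan32, a tetraspanin, from the 85.5th and 95.8th to the 9.27th and 8.03rd. Dusp6, a phosphatase of ERK kinases, went from the 91.1st and 96.8th to the 31.2nd and 17.4th. The tyrosine kinase Src went from the 90.5th and 95.2nd to the 22.4th and 23.4th. This Src peak lay in a wider Spen KO peak that also spanned another Src member. Zdhhc12, Krt17 and Rhbg fell to below the 18th percentile in both Spen KO libraries.

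**Figure D4:**
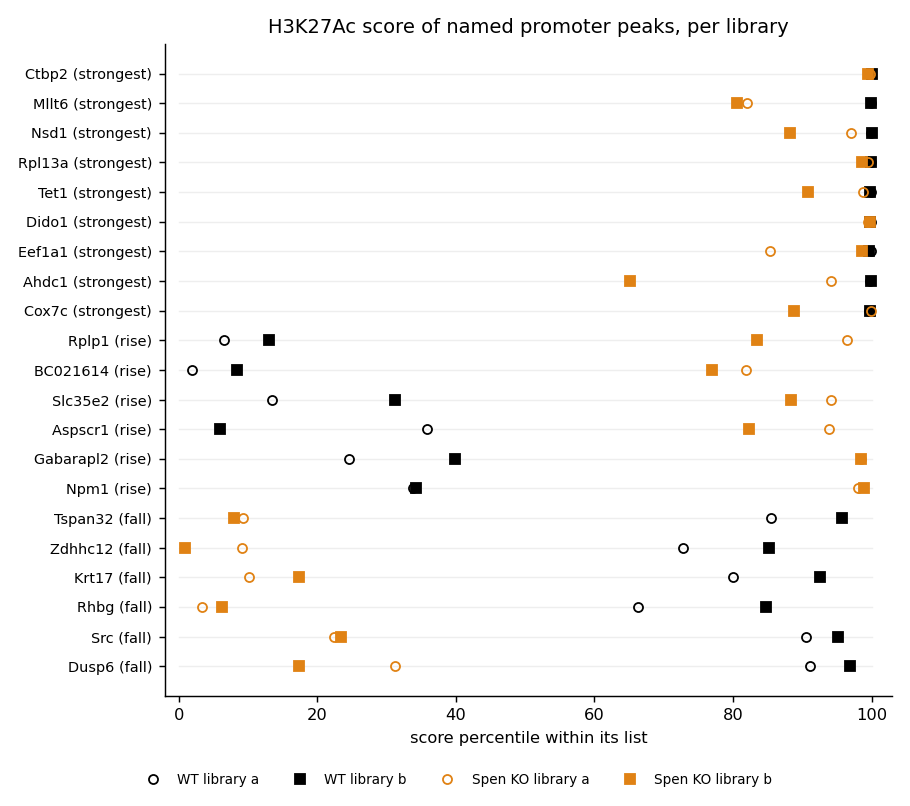
Percentile of the H3K27Ac score within its list (x axis) in each library, for 9 of the 10 strongest promoter peaks and the 6 largest rises and 6 largest falls in rank (y axis). WT is black and Spen KO orange, with circles for library a and squares for library b. The rises and falls were chosen for libraries that do not overlap. An example is the weaker Rplp1 peak, at 6.52 and 13.0 in WT against 96.5 and 83.4 in Spen KO.

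A test of the scores called few members. The log2 scores of each library at all 8378 kept WT peaks, with the score of the Spen KO peak that overlapped most, were quantile normalized and tested with limma (two-sided, Benjamini-Hochberg over all kept peaks). At an adjusted p under 0.05, 32 members scored higher in Spen KO and 42 scored lower. All kept peaks gave 2.09% higher and 1.6% lower, beside which stand the members' 32 and 42 of 3674. With median centring in place of quantile normalization the members' counts were 50 higher and 49 lower, and those of all kept peaks 246 and 156. The 32 higher members were mostly ones whose WT peak had been joined with others, as 25 of them (78.1%) lay in a Spen KO peak that spanned other WT peaks, beside 13.5% of all kept members. Their median log2 width change was 1.73. Of the 42 lower members, 29 (69.0%) were in the top 10% of the WT list, beside 19.1% of all kept members, and 7 lay in such a shared peak. The calls among all kept WT peaks had like shares. Of their higher calls 74.3% lay in a shared peak, and of their lower calls 67.2% were in the top 10%, so neither trait was particular to promoters. When the test was limited to 6195 peaks matched 1 to 1, 5 of 2972 members were higher and 7 lower, beside 33 and 40 of all peaks. At an unadjusted p under 0.05, 211 members were higher and 223 lower, of 709 and 689 among all kept peaks. Leaving out any 1 of the 4 libraries gave 0 calls in limma in both directions, with 86 to 208 members higher and 129 to 177 lower at an unadjusted p under 0.05, of 383 to 578 and 339 to 564 among all kept peaks. Such a fit takes the spread from the other genotype alone, with 1 residual degree of freedom before moderation, and says nothing about the stability of the calls. Since the libraries are technical replicates, the p-values do not measure biological spread.

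The lower members that held among 1 to 1 matches were named with their scores. Gm6792 scored 53.3 and 51.8 in WT against 17.3 and 19.4 in Spen KO (log2 difference -1.79, limma adjusted p = 0.000750). Kctd3 scored 39.0 and 35.9 in WT against 12.4 and 17.1 in Spen KO (-1.65, limma adjusted p = 0.00278). Dusp6 scored 35.0 and 34.6 against 15.4 and 12.8 (-1.57, limma adjusted p = 0.00427). Mycn, a Myc family transcription factor, had 1 of its peaks at 35.0 and 32.9 in WT against 13.9 and 14.8 in Spen KO (-1.50, limma adjusted p = 0.00629). Another Mycn peak, at a mean WT percentile of 98.6, was kept but not called. The other lower members that held were Bend3, 2010107E04Rik and Krt17. In each of these the libraries of the genotypes did not overlap in score, nor in percentile within their list. Dusp6 and Bend3 are on chromosome 10 and Mycn and 2010107E04Rik on chromosome 12, where kept shares and ranks were low. Gm6792, Kctd3 and Krt17 are on chromosomes 7, 1 and 11. Chromosome content was not tested, so a change at a gene and a shift of its whole chromosome cannot be told apart. The largest lower call outside 1 to 1 matches was Tspan32 (-1.66), and Mllt6, Nsd1 and Ahdc1 of the 10 strongest members were also called lower, each in a Spen KO peak that spanned other WT peaks. Mllt6 scored 31.3 and 28.7 in Spen KO.

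The higher members that held among 1 to 1 matches were Notch4, a Notch receptor (7.90 and 6.40 in WT, 20.4 and 20.8 in Spen KO), Spry4, an inhibitor of receptor tyrosine kinase signalling (20.7 and 23.4, then 67.0 and 62.3), BC021614 (8.02 and 9.13, then 30.8 and 27.2), 1300001I01Rik and E130012A19Rik. The largest difference of all members was at Ubtf, the upstream binding factor of ribosomal RNA genes (14.7 and 13.4 in WT, 52.8 and 109 in Spen KO, 2.05 on the log2 scale), in a Spen KO peak that spanned other WT peaks. Both members of Tbx3, a T-box factor, and both of Lefty2, a Nodal antagonist, were called higher, each pair by 1 shared Spen KO peak. Of the ribosomal protein members, 4 of the 89 kept were called, 2 in each direction, beside 2.09% and 1.6% of all kept peaks. The weaker Rplp1 peak and a second Rpl3 peak were higher, and Rps9 and Rps15 were lower. The main Rpl3 peak was at 55.8 and 47.7 in WT against 62.3 and 42.4 in Spen KO, and the called second peak lay in a Spen KO peak that spanned another WT peak.

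**Figure D5:**
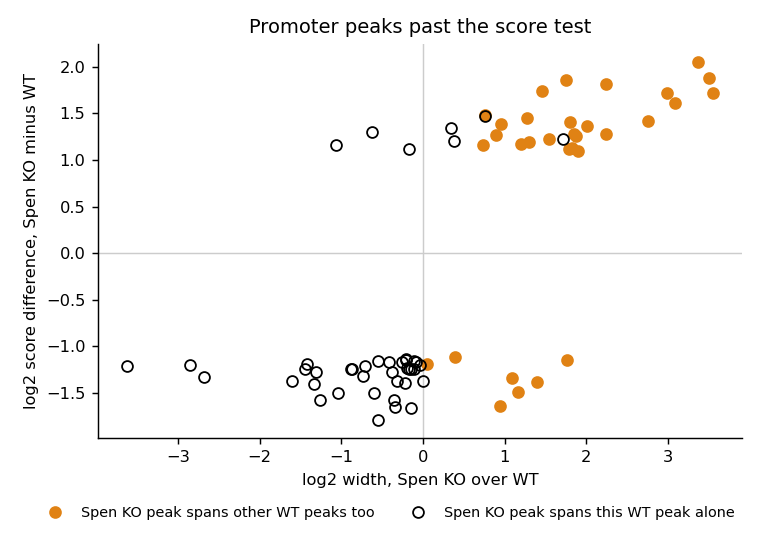
Log2 score difference, Spen KO minus WT (y axis), against log2 width ratio (x axis) for the 74 promoter peaks at a limma adjusted p under 0.05. Filled orange points lie in a Spen KO peak that spans other WT peaks too (25 of the 32 higher and 7 of the 42 lower), and open black points in one that spans no other.

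Nearly all members carried H3K4me3. In WT, 95.4% (Wilson 95% interval 94.8 to 96.0%) overlapped an H3K4me3 peak of the same genotype, beside 57.3% of the whole H3K27Ac list. In the Spen KO list 93.5% (92.7 to 94.2%) did, beside 51.9%, and 97.4% of the members with H3K4me3 in WT had it in Spen KO too. The WT-only members mostly remained marked. Of these 931, 86.5% had H3K4me3 in WT and 79.7% (742) had it in Spen KO, so that 734 had it in both lists, 71 in the WT list only, 8 in the Spen KO list only and 118 in neither. For kept members the shares were 97.7% and 97.0%. The H3K4me3 peaks at members were broad, with a median of 3722 bp in WT, against 1852 bp for those at distal peaks. They were narrower in the Spen KO list, with a median log2 width ratio of -0.25 over 4277 members with the mark in both, beside -0.23 over all H3K27Ac peaks of that kind. The median was -0.41 at WT-only members and -0.22 at kept members. The rank of H3K27Ac and that of H3K4me3 were only weakly related over the 4393 members that had both in WT (Spearman rho 0.12, over peaks that share libraries).

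A small set of 212 members had no H3K4me3 in WT, and 40.6% of them were kept. Zfp57, a zinc finger protein of imprinting control, was the strongest (60.2 and 42.6 in WT, 63.9 and 40.6 in Spen KO), with the nearest WT H3K4me3 peak 264 bp away. Atf1, a CREB family factor (47.2 and 33.8), and Gm17448 (43.5 and 33.6) had their nearest ones 5848 and 10280 bp away. Cfl1, cofilin (34.7 and 38.6), lacked a WT H3K4me3 peak within 817 bp and had one in the Spen KO list at the 87.3rd percentile. Windows of 112 genes with such members had a median CpG ratio of 0.35, low beside 0.82 for all genes with a member.

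Oct4 was found at few members, and the libraries of the genotypes overlapped over all autosomes. It overlapped 7.77% and 6.71% of members in the WT libraries (replicates 1 and 2) and 7.30% and 6.69% in the Spen KO libraries. Averaged over libraries, WT had 7.24% ± 0.752 (SD, n = 2) and Spen KO had 6.99% ± 0.430 (SD, n = 2). The Spen KO mean minus the WT mean was -0.250 percentage points (exact two-sided permutation test over 6 assignments, p = 0.667, where the smallest possible p is 0.333). The groups overlapped. For the whole H3K27Ac list the WT libraries gave 3.55% and 9.24%, and the Spen KO libraries 7.87% and 8.99%. On chromosomes 4, 10, 12, 16 and 17, where fewer H3K27Ac peaks were kept, the shares were apart, at 7.62% and 5.91% of 1116 members in WT and at 2.33% and 3.41% in Spen KO. On the other autosomes they were 7.82% and 6.96% of 3489 members in WT, and Spen KO had 8.89% and 7.74%. These sets were formed after values by chromosome were seen and the difference between them was not tested. WT replicate 1 stood apart. It had the shortest list (1806 peaks, beside 2617 to 4111), the largest share of it at members (18.8%, beside 8.56 to 15.1%), and overlapped 1.26% of distal peaks, where the other libraries overlapped 7.39 to 9.45%. Of the 358 members with Oct4 in WT replicate 1, 267 had it in no other library. Without that library the difference was 0.282 points, and without WT replicate 2 it was -0.782. When Oct4 peaks within 1000 bp also counted it was -3.72, with equal numbers of the strongest peaks per list -0.717, and with 50% overlap of the shorter peak 1.36 points.

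Oct4 was more frequent at strong members. In the top 10% it overlapped 15.2% and 19.3% of members in WT and 18.2% and 19.3% in Spen KO, and below the top 10% 6.42%, 4.42%, 5.31% and 4.39%. Kept members had it at 9.09% and 7.87% in WT and WT-only members at 2.58% and 2.15%. Within the strongest bin alone, kept members had it at 12.9% and 14.5% and the 25 WT-only members at 16% and 12%, and in the bin below it kept members had it at 8.73% and 5.38% and the 119 WT-only members at 2.52% and 5.04%. Strong members were also wider, with a median of 1925 bp in the top 10% and 1046 bp below it. Kept members had a median of 1232 bp and WT-only members one of 896 bp. An overlap of 1 bp counted, so wider peaks had more room for an Oct4 match, and the part of width was not tested. Oct4 in WT replicate 2 and both Spen KO libraries marked 100 members (2.17%), beside 3.75% of the whole WT H3K27Ac list. Of these members, 93 were kept. By fold enrichment over input, Mll1, a histone H3 lysine 4 methyltransferase, was first (19.0 and 31.5 in WT, 20.6 and 9.22 in Spen KO). Gsk3a, a kinase of the Wnt pathway (6.71 and 12.7, then 16.7 and 17.1), Rif1, a replication timing factor (8.78 and 19.6, then 14.3 and 10.4), and the called Mycn peak (8.27 and 15.8, then 13.7 and 12.6) followed. Cobl (13.0 in WT replicate 2, then 11.2 and 12.9) and Tcf7l1, a repressor of Wnt targets (13.9, then 9.60 and 11.8), had no peak in WT replicate 1. The Tcf7l1 member was WT-only for H3K27Ac, with Oct4 present in both Spen KO libraries.

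Oct4 counts by family stand beside 882 of all 4605 members with Oct4 in at least 1 library, and 2.17% with it in WT replicate 2 and both Spen KO libraries. Of 29 pluripotency members, 18 had Oct4 in at least 1 library and 6 in WT replicate 2 and both Spen KO libraries. Of 91 ribosomal protein members the counts were 14 and 0, and of 15 Klf members 10 and 2. Differences between families were not tested. The promoter windows of 276 genes whose members had Oct4 in WT replicate 1 alone held the CCAAT box in 54.7% and the GC box in 75.7%, while those of 102 genes with Oct4 in the other 3 libraries held them in 27.5% and 60.8%. The octamer was in 1.81% and 0.98% of these windows. The windows were set at the gene start and not at the Oct4 summit.

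Looked at from the other side, the Spen KO list had 4655 promoter peaks by the same rule, about as many as the WT list. Of these, 1060 (22.8%) overlapped no WT peak. By gene, 3569 genes had a promoter peak in both lists, 643 in WT only and 894 in Spen KO only, so that 84.7% of the WT genes and 80.0% of the Spen KO genes were shared.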

How the data were processed

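ChIP-seq peak lists of HATX mESCs were analysed. Per their methods, the authors aligned read pairs with Bowtie2 (mm9), discarding pairs that were discordant or placed more than once, and marked duplicates out with Picard. MACS2 peaks were taken at q 0.01 over input. For H3K27Ac and H3K4me3 they kept peaks at an irreproducible discovery rate under 0.05 between 2 libraries. These deposited lists hold a score per library, whose MACS2 column is not stated. A library score could be the mean of several joined peaks (8.23% of members in WT a, 18.7% in WT b). Oct4 lists, as deposited, hold fold enrichment over input, and −log10 of each p-value and q-value, without that filter. The deposited H3K9me3 domains, with a score and a p-value, served only to leave out peaks, and how they were called is uncertain. The authors compared genotypes with DESeq2 on read counts, which were not analysed here, so depth is unknown and absence from a list may reflect a threshold.

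Members, gene families and alternatives were chosen with earlier results of these data known. Shares carry Wilson intervals. Scores were tested with limma 3.58.1 in R 4.3.3 (quantile normalization, intensity trend), after a test on simulated scores. Other steps used Python 3.11.15 and pandas 2.3.3. Coordinates count from 1, and sequence came from the mm9 genome. Genes were named by rule: the 10 strongest, the 8 strongest WT-only, 6 rises and 6 falls in rank, 4 gains and 4 losses of width, 6 by Oct4 enrichment, 2 leading members per family with all pluripotency genes, and 4 without H3K4me3. Some items that these rules name are not reported here. Members called by limma were named after their values were seen.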

Additional observations from a re-analysis of the deposited data

How the results depend on the processing

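The members had a higher kept share than distal peaks under each alternative for which that difference was computed, which leaves out the one with every transcript type. With 50% overlap of the shorter peak, H3K4me3 was at 94.2% of members in WT and 91.9% in Spen KO, and the Oct4 difference turned to 1.36 points. With a gap of 1000 bp allowed, 84.5% were kept (28.0 points over distal), the width median was 0.15, H3K4me3 was at 97.7% and 96.9%, and the Oct4 difference was -3.72 points. With equal numbers of the strongest Oct4 peaks it was -0.717. With gene 5′ ends alone, 82.1% were kept and H3K4me3 was at 97.1% and 95.4%. With the TSS inside the peak, 86.7% were kept (39.1 points over distal), the width median was -0.0557, H3K4me3 was at 97.8% and 96.9%, and 68.2% of ribosomal members were in the top 10%. With H3K9me3 peaks kept in, the difference from distal was 29.9 points. In the stronger 50% of each list 76.1% were kept (23.3 points), with a width median of -0.00526. With lists of equal length 83.1% were kept (27.4 points) and the rank median was 2.82. Leaving out 1 library moved the rank median between -2.07 and 1.11, the Oct4 difference between -0.782 and 0.282, the ribosomal share between 53.8% and 56.0%, and the limma calls to 0 in both directions, in fits with 1 residual degree of freedom that say nothing about stability. Without Spen KO replicate 2 the Oct4 difference was 0.0543. Median centring gave 50 higher and 49 lower members. Added after seeing the data: every transcript type as a TSS kept 76.6%; leaving out chromosomes 4, 10, 12, 16 and 17 kept 83.0% and gave a rank median of 0.80; members matched 1 to 1 had a width median of -0.0624 and gave 5 higher and 7 lower calls. With the replicate number as a replicate block, the Oct4 difference of -0.250 had an exact paired p of 0.5, the smallest possible. Over members, same-numbered libraries showed little common deviation (r = 0.01). Most members had Oct4 in no library, so this value cannot show whether same-numbered libraries were prepared together. No replicate block could be fitted for the scores, since the columns carry no replicate number. The causes of these shifts were not tested.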
